A study of Rattus norvegicus with 8 samples.

Results

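Cd14 and 9 further genes of Toll-like receptor (TLR) signalling were followed in the dentate gyrus (DG) of rats after status epilepticus (SE). The set holds the co-receptor Cd14, the receptors Tlr2, Tlr3, Tlr4 and Tlr7, the accessory proteins Lbp and Ly96, the adaptor Myd88 and the kinases Irak1 and Irak2. Members were found as the non-control spots whose gene name in the scanner files equals one of these symbols, which gave 11 spots for all 10 genes among 35250 gene names on the array. Cd14 had 2 probes and each of the others had 1. The members were chosen by their known place in the pathway and with their measured difference between the groups already known, so the values below are a description and carry no test.

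All rats were adult female Sprague-Dawley rats that had been ovariectomized and made to seize with kainic acid, a glutamate receptor agonist. The 4 COS rats (castrated, oil-injected, SE) received oil, and the 4 CES rats (castrated, estradiol-replaced, SE) received 4 doses of 2 microg of estradiol. The sample records and the methods of the study differ on the dose of kainic acid, on the drug that stopped the seizures, on how many estradiol doses came before them and on when the tissue was taken, and the files do not settle this. The records give kainic acid at 16 mg/kg and an SE of 5 h. They place 2 estradiol doses before SE and 2 after it, at intervals of 24 h. The methods give a lower kainic acid dose and place all estradiol doses before SE. Rats without SE were not analysed here. Each rat filled 1 channel of a 2-colour array and shared that array with another rat of its own group, so array and group cannot be told apart by any fixed term. Replicates 1 and 3 of both groups carried Cy3, and replicates 2 and 4 carried Cy5.

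TLRs are pattern recognition receptors that bind microbial products and molecules released by damaged cells. All of those measured here except Tlr3 signal through the adaptor Myd88 and the Irak kinases to NF-kappa-B, which switches on cytokine and chemokine genes. In brain, microglia carry most of these receptors, and astrocytes and invading blood cells can carry some.

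A level is the background-subtracted signal of a gene relative to the median of the valid spots of the same channel, on the log2 scale, so 0 is the level of that median spot. A spot counted as valid with a foreground of 2 or more times the background around it, and 21372 genes had a spot valid in every rat. The share of valid spots ran from 74.6% to 88.9% in COS and from 70.7% to 81.5% in CES. CES replicate 2 stood apart from its group, with a correlation of 0.966 to the mean of the other CES rats across genes, where every other rat reached at least 0.983 with its own group. Over all genes the median difference, CES minus COS, was -0.25, and differences relative to that shift are given beside the main ones. By limma, 34.1% of all genes passed an adjusted p of 0.05, 28.3% lower in CES and 5.79% higher. That split depended on the scaling: when each channel was instead scaled on the common set of spots, those valid in every rat, 3352 genes were higher and 1720 lower, against 1238 and 6054.

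Cd14 is the membrane-anchored co-receptor that hands lipopolysaccharide to Tlr4. Its readings rest on 2 stretches of the transcript, both on the minus strand of rn4 chromosome 18, and the 60-base probes are shown because every Cd14 value below was read from them. The first starts at base 270 of the transcript and lies at chr18:29375770-29375829. The second starts at base 1050 and lies at chr18:29374990-29375049.
Cd14 probe at base 270: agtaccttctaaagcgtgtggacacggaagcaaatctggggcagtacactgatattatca
Cd14 probe at base 1050: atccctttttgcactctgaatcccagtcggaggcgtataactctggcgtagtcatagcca

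The Cd14 level in the COS rats was 5.96, 6.45, 6.50 and 5.84 in replicates 1 to 4. In the CES rats it was 0.65, 4.44, 0.13 and -0.68 in the same order. Every CES rat lay below every COS rat, but CES replicate 2 lay 4.41 above the mean of the other CES rats and nearer to the COS group than to them. The COS mean was 6.19 ± 0.34 (SD, n = 4) and the CES mean was 1.14 ± 2.27 (SD, n = 4). The fitted difference was -5.05 (SE 0.875), a level 33.1-fold lower in CES, and -4.79 relative to the shift of all genes. Without CES replicate 2 the difference was -6.24. Within the Cy3 channels Cd14 differed by -5.84, and within the Cy5 channels, which hold CES replicate 2, by -4.26. In bulk tissue, fewer cells that carry a gene and less of its RNA per cell cannot be told apart.

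On both probes of Cd14 all COS rats were above all CES rats, and CES replicate 2 was the highest CES rat. At base 1050 the spot was between 412 and 1287 times its local background in the COS rats. In the CES rats it was 10.04, 349, 6.23 and 8.36 times background, so all 8 rats were valid and well above background. At base 270 the COS spots were between 26.1 and 89.2 times background. There the CES spots were at 1.91, 17.2, 1.84 and 1.74 times background, and only replicate 2 was valid. This probe does not enter the Cd14 level above, and no difference is given for it, because its spot was not valid in the other 3 CES rats.

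**Figure D1:**
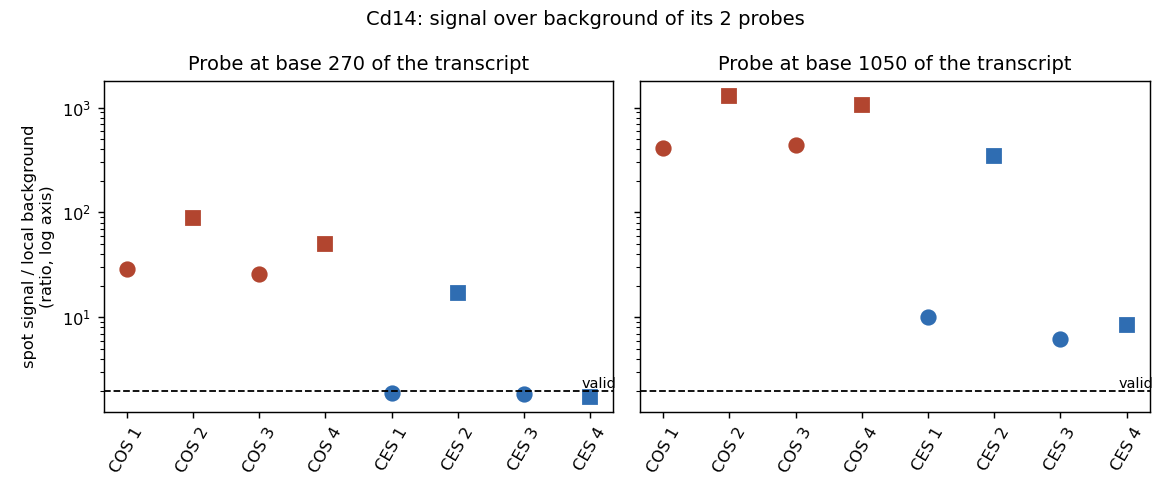
Signal of the Cd14 spots over their local background in each rat, as a ratio on a log axis, for the probe at base 270 of the transcript (left) and the probe at base 1050 (right). Red marks COS, blue marks CES, circles are Cy3 channels, squares are Cy5 channels, and the dashed line is the ratio of 2 above which a spot was valid. On both probes CES replicate 2, at 17.2 and 349, sits above the other 3 CES rats.

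Lbp, the lipopolysaccharide-binding protein that loads Cd14, could not be quantified across both groups. Its spot was valid in 4 COS rats and in 2 CES rats, replicates 1 and 2. It was well above background in 3 COS rats and in CES replicate 2 alone. Without the validity filter its COS levels were 0.09, -0.04, -0.10 and -1.31, and its CES levels were -2.78, -2.45, -2.93 and -4.95. All CES values lay below all COS values, and COS replicate 4 was the lowest of its group. No fitted difference is given, since the spots of CES replicates 3 and 4 were too close to background for a usable log level.

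Ly96 (MD-2) sits on the outer part of Tlr4 and binds the lipid part of lipopolysaccharide. Its levels were -0.32, -0.62, -0.90 and -1.99 in the COS rats and -2.11, -2.35, -0.82 and -2.54 in the CES rats. The groups overlapped: COS replicates 3 and 4 lay inside the CES range, and CES replicate 3 lay inside the COS range. The difference was -1.0 (SE 0.347), or -0.75 relative to all genes. The spot was well above background in 3 COS rats and 2 CES rats. Ly96 was no longer called under 16 of 21 alternatives. Among these were all other scalings of the channels, the replicate number as a block and 6 runs that left out 1 rat.

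Tlr4 is the lipopolysaccharide receptor itself. In the COS rats its level was -0.07, -0.68, 0.26 and -0.65, and in the CES rats -2.02, -1.34, -1.81 and -2.43. The groups did not overlap. The Cy5 rats of COS read lower than its Cy3 rats, and in CES the highest and the lowest rat both carried Cy5. The difference was -1.61 (SE 0.263), 3.06-fold lower in CES, and -1.36 relative to all genes. It was smaller, -0.55, with loess and Aquantile normalization and -0.59 with quantile normalization. Both were run after a normexp background correction, which by itself gave a difference of -0.79. All 4 COS rats but only 2 CES rats were well above background. The difference was -2.01 within Cy3 and -1.22 within Cy5.

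Tlr2 binds bacterial lipopeptides as a dimer with Tlr1 or Tlr6. Its level was 2.75, 2.18, 2.91 and 2.04 in the COS rats and 1.15, 1.57, 1.65 and 1.05 in the CES rats. The groups did not overlap, and all 8 rats were well above background. The difference was -1.12 (SE 0.210), 2.17-fold lower in CES, and -0.86 relative to all genes. It shrank to -0.64 with loess and Aquantile and with quantile normalization. The normexp background correction that preceded both gave -0.85 by itself. CES replicate 2 did not stand out here: it lay 0.29 above the mean of the other CES rats, and CES replicate 3 was higher.

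Tlr2 was also the only member whose promoter window held the NF-kappa-B motif. RefSeq promoter windows of the GRCr8 build, from 250 bases before to 50 bases after the annotated start, were found for 7 of the 10 members, all but Ly96, Irak2 and Lbp. The window of Tlr2, on the minus strand at chr2:171504508-171504807, is shown with the bases of its 3 matches in capitals, 2 of which overlap. Their first bases lie 206, 205 and 42 bases before the start.
Tlr2 promoter window: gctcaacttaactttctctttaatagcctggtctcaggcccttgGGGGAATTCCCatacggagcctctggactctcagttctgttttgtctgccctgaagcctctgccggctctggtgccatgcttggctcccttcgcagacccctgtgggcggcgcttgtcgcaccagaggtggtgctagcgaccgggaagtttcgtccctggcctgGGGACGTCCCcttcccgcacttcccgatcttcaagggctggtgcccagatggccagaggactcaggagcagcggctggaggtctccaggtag
Both strands were searched, and 7.51% of all 33469 promoter windows of the same length held that motif. The estrogen response element, read as GGTCANNNTGACC, was in no member's window and in 0.0269% of all windows. These are counts of letters in a window and say nothing of binding.

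Tlr3 and Tlr7 are endosomal receptors, Tlr3 for double-stranded RNA and Tlr7 for single-stranded RNA. The Tlr3 level was 0.61, -0.17, 0.62 and 0.12 in the COS rats and -1.15, -0.74, 0.17 and -1.09 in the CES rats. CES replicate 3 lay inside the COS range and the other 3 CES rats lay below it. The Tlr3 difference was -1.0 (SE 0.265), or -0.74 relative to all genes. The Tlr7 level was -0.32, -0.89, -0.22 and -0.72 in the COS rats and -1.40, -0.95, -1.06 and -1.66 in the CES rats. The groups did not overlap, though the gap between COS replicate 2 and CES replicate 2 was small. The Tlr7 difference was -0.73 (SE 0.205), or -0.47 relative to all genes, with 3 COS rats and 2 CES rats well above background. Neither receptor's call held under the other scalings of the channels.

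Myd88 is the adaptor that joins most TLRs to the Irak kinases. Its level was 0.72, 0.79, 0.82 and 0.41 in the COS rats and -1.10, 0.03, -1.08 and -1.85 in the CES rats. The groups did not overlap, and CES replicate 2 was again the highest CES rat, 1.38 above the mean of the other 3. The difference was -1.69 (SE 0.341), 3.22-fold lower in CES, and -1.43 relative to all genes. With loess and Aquantile normalization it was -0.75, and with quantile normalization -0.78. The spot was well above background in all 4 COS rats and in 2 CES rats. The promoter window of Myd88, on the minus strand at chr8:127956181-127956480, was the only one of the 7 that matched TGANTCA. These letters were searched as a loose form of the AP-1 motif, with any base in the middle. The match, TGAATCA, has an A there. It is in capitals below, and its first base lies 208 bases before the start.
Myd88 promoter window: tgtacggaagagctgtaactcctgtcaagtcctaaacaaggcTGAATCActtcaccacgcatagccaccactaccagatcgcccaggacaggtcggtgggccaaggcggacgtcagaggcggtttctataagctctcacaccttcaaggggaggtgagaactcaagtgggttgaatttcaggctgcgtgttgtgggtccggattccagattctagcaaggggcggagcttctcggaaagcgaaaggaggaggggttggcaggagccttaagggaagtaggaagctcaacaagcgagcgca
Of all windows, 7.33% held a match to TGANTCA.

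Irak1 and Irak2 are kinases recruited to the Myd88 complex. The Irak1 level was 3.35, 3.14, 3.51 and 2.93 in the COS rats and 3.13, 2.92, 3.19 and 2.71 in the CES rats. The groups overlapped, and within both groups the Cy3 rats read above the Cy5 rats, by 0.37 on average over the 4 arrays. The Irak1 difference was -0.24 (SE 0.152), which is 0.01 relative to all genes, and it was the only quantified member that was not called. Its sign turned under 4 alternative scalings. The Irak2 level was -1.35, -1.62, -1.10 and -2.18 in the COS rats and -2.30, -2.81, -1.43 and -3.41 in the CES rats. COS replicates 2 and 4 and CES replicate 3 lay inside the range of the other group. The Irak2 difference was -0.92 (SE 0.256), or -0.67 relative to all genes, from a spot that was well above background in 2 COS rats and 1 CES rat. The Irak2 probe spans 3599 bases of rn4, so its 60 bases cross at least 1 intron.

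**Figure D2:**
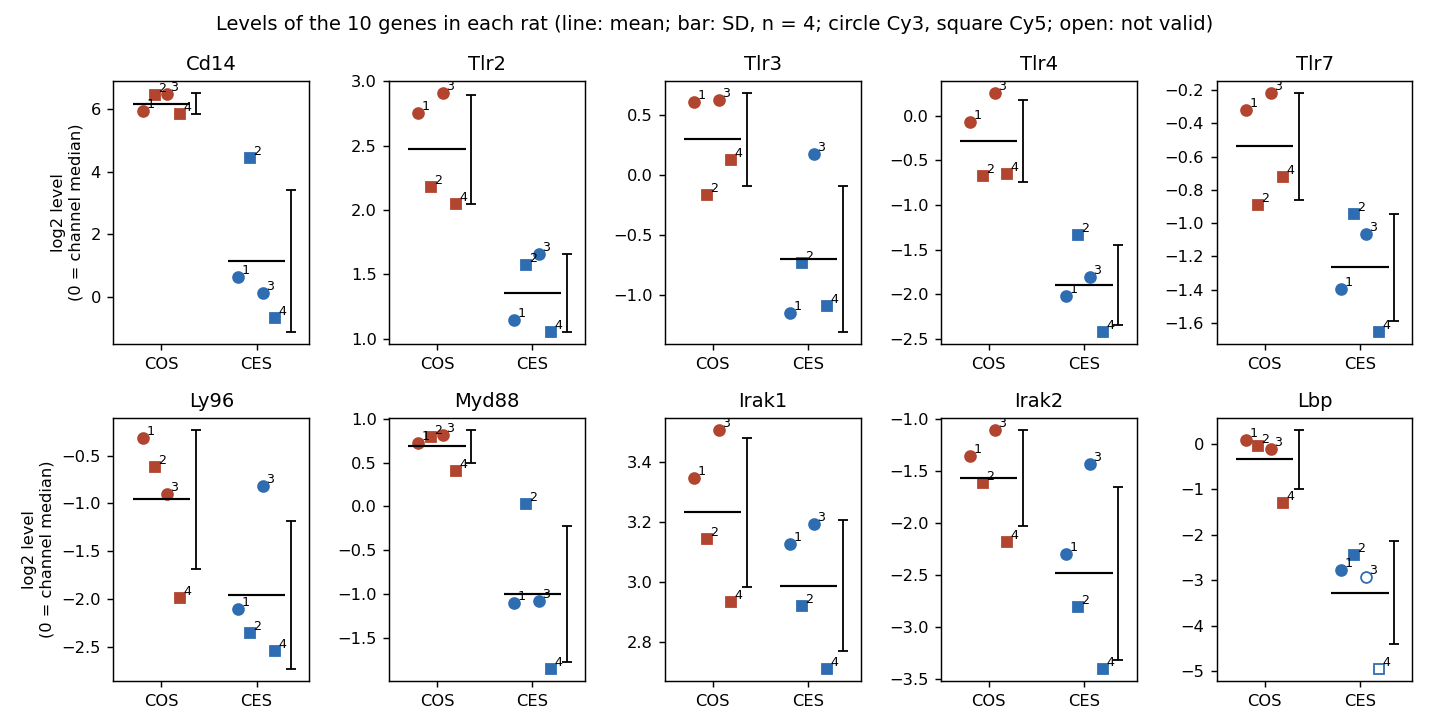
Log2 level of each of the 10 genes in each rat, with 0 at the median valid spot of the channel. Red is COS, blue is CES, circles are Cy3, squares are Cy5, numbers are replicates, open symbols are spots that were not valid, lines are group means and bars are SD (n = 4). For Cd14, Tlr2, Tlr4, Tlr7 and Myd88 all CES rats lie below all COS rats, and for Irak1 the ranges of the groups overlap.

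Of the 9 quantified members, 8 were called lower in CES, beside 28.3% of all genes, and 0 were called higher, beside 5.79%. The values of 5 members did not overlap between the groups, beside 21.4% of all genes in either direction and 19.8% with CES lower. The members' median difference was -1.0, against -0.25 over all genes. Because the members were picked with this contrast in view, nothing is read from these counts. With loess and Aquantile normalization, with quantile normalization, with scaling on the common set of spots and with the deposited log2 table, 4 members were called lower each time: Cd14, Tlr2, Tlr4 and Myd88. Leaving out single rats moved the count between 1 and 8. It fell to 1, Tlr4, without COS replicate 3, to 4 without COS replicate 4 or CES replicate 1, and to 5 without COS replicate 1. Without CES replicate 2 it was 7. Within Cy3 the members' differences ran from -5.84 to -0.27, and within Cy5 from -4.26 to -0.22, all with CES lower.

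**Figure D3:**
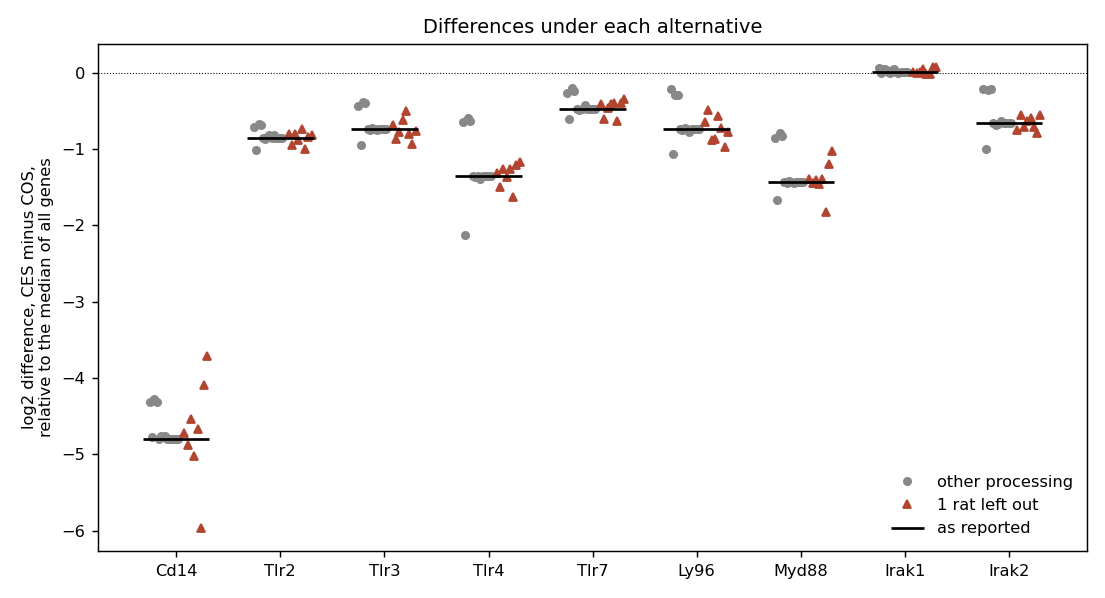
Log2 difference of each quantified member, CES minus COS, after subtracting the median difference of all genes under the same setting. The black line is the value reported above, gray points are other ways of processing and red triangles leave out 1 rat. Relative to all genes, Cd14 stayed between -5.96 and -3.71, and the points of Irak1 lie around 0.

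Across the 8 rats the genes that followed Cd14 most closely, among 13720 genes well above background in every rat, were the array transcript TC610459 (Pearson r = 0.997), Inhba, which encodes a subunit of activin (0.996), Ddx39a, an RNA helicase (0.996), the array transcript XM_225467 (0.996) and Tnfrsf12a, the receptor of the cytokine TWEAK (0.995). In each of these genes CES replicate 2 was the highest CES rat, as it was for Cd14. Among the members, Myd88 followed Cd14 with r = 0.99, Tlr4 with 0.93, Tlr7 with 0.85, Tlr2 with 0.84, Tlr3 with 0.65, Irak2 with 0.53, and Ly96 and Irak1 with 0.48 each. These correlations share the difference between the groups and the channel of each rat, and are given only to order the genes.

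Beyond the members, 52 further genes of the pathway were listed by role, of which 45 were on the array by name and 33 were quantified. Of the 33, 19 fell in CES and 0 rose (limma, adjusted p under 0.05), beside 28.3% and 5.79% of all genes. Their median difference was -0.75, or -0.49 relative to all genes, and 14 had no overlap between the groups, beside 21.4% of all genes in either direction. Of the 19, 9 were still called under all 4 alternative scalings, and all 19 kept their sign under every alternative run.

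Of the 6 quantified genes that TLR signalling induces, 5 fell, beside 28.3% of all genes, and Il6 was not called. Tnf and Ccl3 were on the array but not quantified. Tnf was well above background in 2 COS rats and 2 CES rats, and Ccl3 in 4 COS rats and 1 CES rat. The chemokine Ccl2, which draws monocytes, was at 6.46, 7.08, 5.96 and 6.16 in the COS rats and at -2.05, 4.32, -0.63 and -3.25 in the CES rats. Its difference was -6.82 (SE 1.26, limma adjusted p = 0.00547), and CES replicate 2 again lay far above the other CES rats without reaching the COS range. The chemokine Cxcl10 differed by -4.05 (SE 0.823, limma adjusted p = 0.00702), with CES replicate 2 at 1.81 and the other CES rats between -2.79 and -0.92. Both chemokines were well above background in 4 COS rats, but Ccl2 in only 3 CES rats and Cxcl10 in only 2. The cytokine Il1b fell by 2.16 (SE 0.388, limma adjusted p = 0.00518), and here CES replicate 2, at -2.0, lay among the other CES rats. Its spot was well above background in 3 rats of COS and 2 of CES, and it was called under 2 of the 4 alternative scalings, with a difference as small as -0.86. Ptgs2, the inducible cyclooxygenase, fell by 1.89 (SE 0.391, limma adjusted p = 0.00757). Nfkbia, the NF-kappa-B inhibitor that NF-kappa-B itself induces, fell by 1.34 (SE 0.213, limma adjusted p = 0.00414). Without COS replicate 3, Ccl2, Cxcl10 and Ptgs2 were not called.

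Among endogenous TLR ligands, 3 of 4 quantified genes fell, beside 28.3% of all genes. The matrix protein tenascin C (Tnc) fell by 2.72 (SE 0.410, limma adjusted p = 0.00390), with the highest CES rat at -0.08 and the lowest COS rat at 1.05. Tnc was well above background in 4 COS rats but only 2 CES rats. The proteoglycan biglycan (Bgn) fell by 1.57 (SE 0.391, limma adjusted p = 0.0147), but CES replicate 2, at 5.95, lay inside the COS range, and Bgn was called under none of the 4 alternative scalings. Hspd1 fell by 0.76, and it too was called under none of them.

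Of the negative regulators 1 of 5 fell, beside 28.3% of all genes, so the count is no result about the group. The gene was Sigirr, a membrane protein that dampens TLR and interleukin-1 receptor signals. Its difference was -2.07 (SE 0.354, limma adjusted p = 0.00462), and it was still called whichever single rat was left out and under all 4 scalings. Among the other receptors Tlr6, the partner of Tlr2, fell by 1.30 (SE 0.234, limma adjusted p = 0.00518), with COS rats between 1.35 and 2.12 and CES rats between 0.00 and 0.82. Tlr9 was the only other quantified receptor of this group and was not called.

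Of the further adaptors and kinases 6 of 11 fell, beside 28.3% of all genes, and 2 of the 6 were called under all 4 alternative scalings. The ubiquitin ligase Traf6, which acts below the Irak kinases, fell by 1.25 (SE 0.204, limma adjusted p = 0.00417), and CES replicate 2, at -0.56, was the lowest rat. The kinase Ripk1 fell by 1.16 (SE 0.335, limma adjusted p = 0.0259) with overlap between the groups. Of the receptor partners and chaperones 3 of 5 fell, beside the same 28.3%. They were led by Ly86 (MD-1), the partner of Cd180, which fell by 1.13 (SE 0.374, limma adjusted p = 0.0414). Ripk1 and Ly86 were called under none of the 4 alternative scalings. The other partners and chaperones that fell were called under at most 1 of them.

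**Figure D4:**
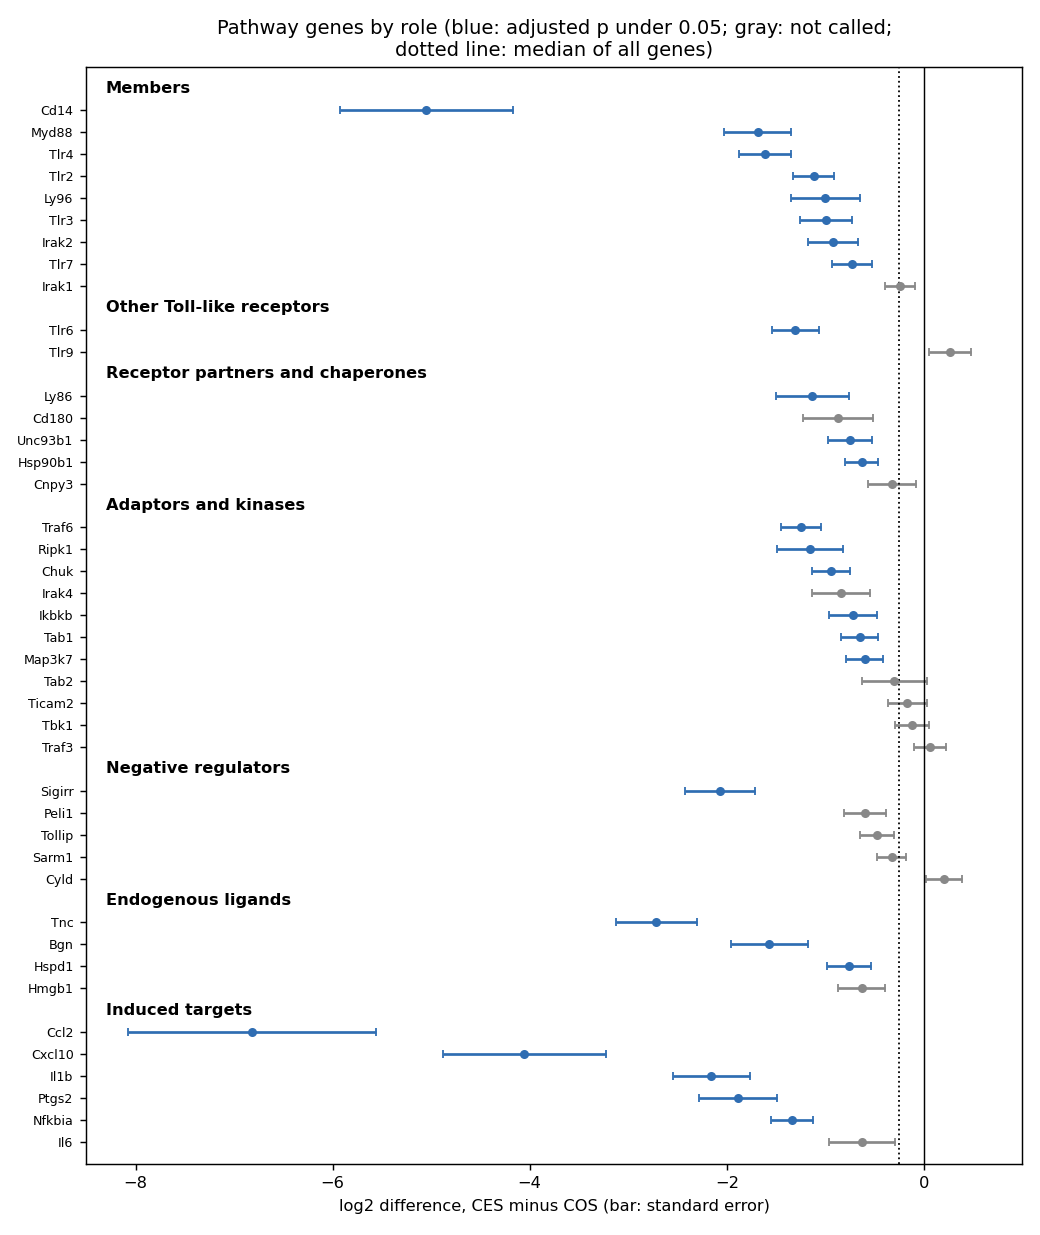
Log2 difference, CES minus COS, of the quantified members and of 33 further pathway genes by role, with bars for the standard error. Blue points passed an adjusted p of 0.05 in limma, gray points did not, and the dotted line is the median of all genes at -0.25. Ccl2 at -6.82, Cd14 at -5.05 and Cxcl10 at -4.05 lie farthest to the left.

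Markers of the cell types that could carry these genes were read beside them. Of 10 microglial and macrophage markers, all quantified, 5 fell in CES and 1 rose, beside 28.3% and 5.79% of all genes. The fall was in Fcgr3a, an Fc receptor (-2.28), the lysosomal protein Cd68 (-2.19), the integrin Itgam (-1.92), the growth factor receptor Csf1r (-0.92) and the complement subunit C1qa (-0.86). P2ry12, a purinergic receptor of resting microglia, rose by 0.93 (SE 0.199, limma adjusted p = 0.00831). Aif1, Cx3cr1 and Ptprc were not called, nor was Tmem119, which was well above background in 0 COS rats and 1 CES rat. The summed level of the list was 6.14 to 6.81 in COS and 5.32 to 6.07 in CES. These ranges did not overlap, but the gap between them was smaller than the shift of all genes, -0.25, which depends on the scaling. C1qa, the brightest of these markers, was called under none of the 4 alternative scalings. Of the 6 calls, those of Cd68, Fcgr3a and P2ry12 held under all 4 alternative scalings. The part of the microglial markers in the differences of the members was not tested.

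None of the markers of blood monocytes and neutrophils reported here was quantified, and Ccr2, Mpo, Elane, Cxcr2 and Fpr1 were well above background in 0 rats, while Ly6c was so in 3 COS rats and 1 CES rat. Of 7 astrocyte markers 1 fell and 2 rose, beside the same shares of all genes. Of these calls only the rise of Aldh1l1 held under all 4 scalings. Slc1a2, not called in the main fit, was called higher under all 4 of them. The summed level of the 7 markers was 7.50 to 7.63 in COS and 7.27 to 7.86 in CES. Among the neuronal markers 2 of 4 rose, Neurod1 by 1.16 and Syt1 by 0.59, beside 5.79% of all genes. Prox1, which defines dentate granule cells, was well above background in 0 rats. Calb1, which these cells also carry, was well above background in all 8 rats. Of the oligodendrocyte markers 0 of 5 were called, beside 34.1% of all genes in either direction. Of the endothelial markers 2 of 4 fell, Flt1 and Tek, beside 28.3% of all genes. Neither was called under all 4 scalings, and Tek turned sign with no filter on valid spots. Choroid plexus markers varied from rat to rat within both groups, with summed levels of 3.74 to 9.27 in COS and 4.01 to 7.60 in CES. Of these markers 0 of 5 were called, beside 34.1% of all genes. The part of these other cell types in the members' differences was not tested.

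**Figure D5:**
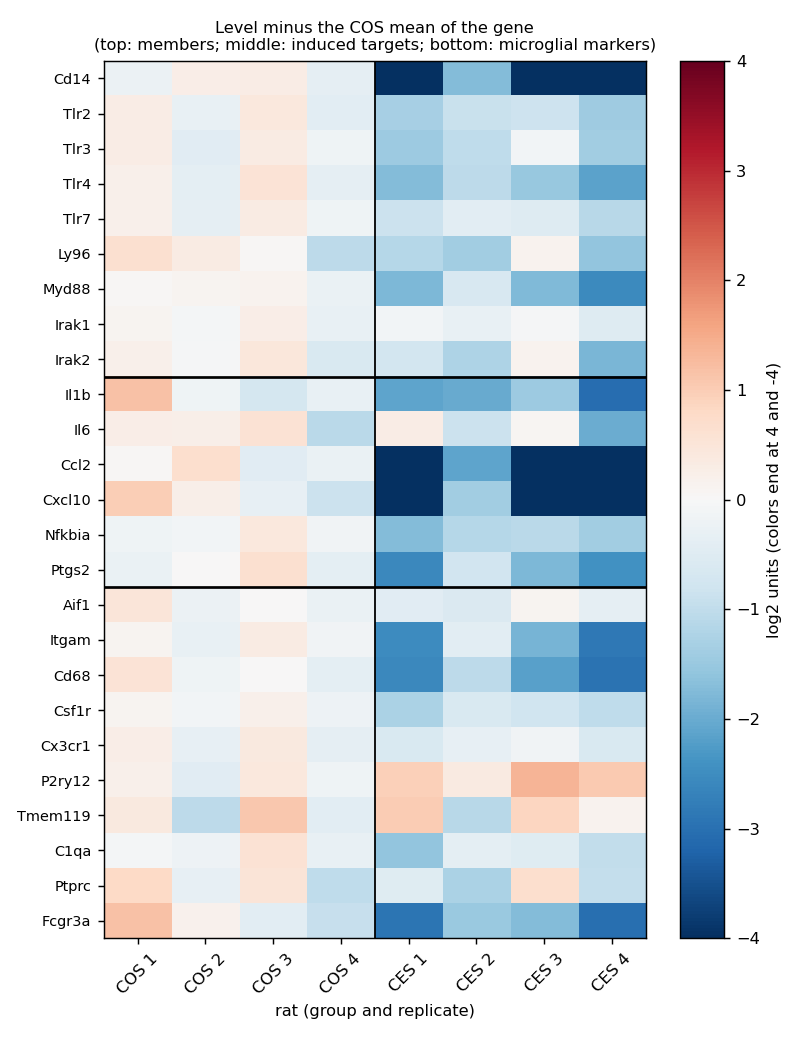
Level of each gene in each rat minus the mean of the COS rats for that gene, in log2 units, with the colors ending at 4 and -4. Rows are the quantified members (top), the induced targets (middle) and the microglial markers (bottom), and columns are rats. CES replicate 2 is paler than the other CES rats for Cd14, Myd88, Ccl2 and Cxcl10, and P2ry12 is red in all 4 CES rats.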

How the data were processed

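Per the labels, total RNA was labelled with Cy3 or Cy5 and hybridized to Agilent arrays. As deposited, the scanner files hold spot and local background intensity, extracted by Agilent Feature Extraction 10.7.3.1 before normalization. The authors also deposited a log2 table, equal per column to the log2 of the median signal minus background, less a constant. Here each spot's mean signal, less its background median, was scaled to the median valid spot of its channel; the spots of a gene that every rat had valid were averaged, and log2 was taken. No spot was saturated. Probe positions are those of the files (rn4). The groups were compared in R 4.3.3 with limma 3.58.1, dye as a fixed term and array as a random block (statmod 1.5.0), Benjamini-Hochberg adjusted, threshold 0.05. The median standard error was 0.197 on the log2 scale, with 4 rats a group. The records do not state more than the replicate number for a rat, so p-values measure the spread between these rats. Scripts were tested on simulated data. Alternatives covered background correction, normalization, spot filters, probe choice, model terms, the deposited table, the methods' t-test and leaving out each rat. The iterative renormalization that the methods describe is in neither kind of file.

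The members and all lists were chosen with earlier results of these data known. Named singly are all members, the largest differences among the called pathway genes, up to 12, the 5 genes most like Cd14, and marker genes; Hspd1 and single uncalled genes were added after their values were seen. Same-numbered rats deviated together (r from 0.209 to 0.336 across genes), but they share a dye, and with the dye removed r was -0.065 and -0.039. The replicate block therefore stands in for the dye. One marker gene is not reported here.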

Additional observations from a re-analysis of the deposited data

Results flagged for a closer look

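The Lbp level of COS replicate 4, -1.31, lay apart from the other 3 COS rats, which were at 0.09, -0.04 and -0.10. It passed Dixon's limit for a group of 4, alone among 22 groups of member probes examined. Chance passes about 1 in 20 groups. The Lbp spot of that rat was valid.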

How the results depend on the processing

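Settings were changed one at a time, except for loess and quantile normalization. Both were run on the signal after normexp background correction with an offset of 50, so both changes enter their values. The methods' t-test was adjusted here by Benjamini-Hochberg over all genes. The methods instead correct for redundant spots of a gene and add a fold-change cut-off, which was not applied here. A count of 0 with this test is therefore not the count under the methods' own rule. Over all genes, 7292 calls became 587 with normexp, 3115 with no filter on valid spots and 0 with the methods' t-test (6114 at an unadjusted p under 0.05, against 9657 by limma), and ran from 1194 to 8862 when 1 rat was left out; the lowest came without COS replicate 3, and it was 4154 without COS replicate 1 and 3027 without CES replicate 1. Members called lower, 8 as reported, were 1 with normexp (Cd14), 4 with loess, quantile normalization, common-spot scaling or the deposited table, 5 with no filter (of 10) or a foreground of 3 times background (of 6), 2 for spots well above background in all rats (of 3), 0 with the methods' t-test, and 1 to 8 with 1 rat left out. With no filter the 5 were Cd14, Tlr2, Tlr4, Myd88 and Lbp. Lbp was not among the 8, and its spots in CES replicates 3 and 4 were close to background. The other pathway genes called lower, 19 as reported, were 4 with normexp, 9 with loess, 10 with quantile normalization, common-spot scaling or the deposited table, 0 with the methods' t-test and 5 to 23 with 1 rat left out. The 5 was without COS replicate 3; without COS replicates 1 and 2 and CES replicate 1 they were 11, 12 and 10. Of these genes 1, Tlr9, was called higher, with common-spot scaling only. Irak1 turned sign to 0.0907 with loess, 0.0924 with quantile normalization, 0.16 with common-spot scaling and 0.12 with the deposited table; no other member turned, and no member was called higher under any setting. The cause of these changes was not tested.

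With the replicate number as a block in place of the dye, 7224 genes, 7 members and 20 other pathway genes were called; among members the call of Ly96 was lost and no other call changed. A rat whose array partner was left out is assumed to vary like the others. Loess gave 3311 genes higher and 2223 lower, and the deposited log2 values gave 3285 and 1936, so counts of lower genes depend on the scaling. Signal over background limits Irak2, Ly96, Tlr4, Tlr7 and Lbp most. The Tlr4 spot was as low as 2.11 times background in CES. With a foreground of 3 times background Irak2, Tlr4, Tlr7 and Lbp were not quantified.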
